A study of Mus musculus with 12 samples.

Results

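CXC chemokines are small secreted proteins that guide migrating cells, and *Ackr3* encodes a chemokine receptor that takes up *Cxcl12* without classical G protein signaling and so acts as a decoy. The 9 ligand genes *Cxcl1*, *Cxcl2*, *Cxcl3*, *Cxcl5*, *Cxcl9*, *Cxcl10*, *Cxcl12*, *Cxcl14* and *Cxcl16* and the receptor *Ackr3* were taken by gene name from the expression table. They were 10 of 46731 genes, and 8 of them were among the 12368 genes that passed a filter on low values (at least 1 FPKM, fragments scaled to gene length and library size, in at least 3 libraries). *Cxcl14* and *Cxcl16* did not pass. *Cxcl2* and *Cxcl9* passed only through the cytokine-treated libraries, so that in the comparisons of cytokines with medium they had to differ. *Ackr3* reached 1 FPKM in 2 libraries in medium, both of shRNA-Ddx5, and in all 6 with cytokines. It therefore also needed the cytokine-treated libraries to pass.

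The libraries were poly(A)-selected RNA of ATDC5, a mouse teratocarcinoma-derived line used as a model of chondrocytes. Each of the 4 groups held 3 libraries from biologically independent experiments. The groups were shRNA-NC cells (control hairpin, labelled wildtype) and shRNA-Ddx5 cells (DDX5 knockdown), each without stimulation or after 5 ng/ml IL-1β plus 25 ng/ml TNF-α for 6 h. All cells carried a lentiviral cassette that was stably integrated, with the hairpin driven by a U6 promoter and selection with puromycin, and the sources used here give 1 control line and 1 knockdown line. A difference between the lines therefore cannot be told apart from a difference between these integrated cell populations. The question was how loss of the RNA helicase DDX5 changes expression in resting and inflamed chondrocyte-like cells, here for the CXC ligands and their decoy receptor.

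Each library held 14119199 to 19276520 fragments on genes. *Ddx5* in the knockdown libraries was at 32.3% of its control mean in medium (103 against 319 FPKM) and at 32.1% with cytokines (99.5 against 310 FPKM), and the libraries did not overlap. The cartilage regulator *Sox9* was present (group means 5.40 to 27.5 FPKM), while *Acan*, which encodes aggrecan, had group means of at most 0.0243 FPKM, so this defining cartilage gene was close to absent. Of 8 chondrogenic markers 4 were tested, with 1 higher and 2 lower in shRNA-Ddx5 in medium and 1 higher and 3 lower with cytokines. In medium the cartilage collagen gene *Col2a1* had means of 12.4 FPKM in shRNA-NC and 0.899 FPKM in shRNA-Ddx5. *Col11a1* had 0.897 and 4.78 FPKM. *Col2a1* entered the test only through shRNA-NC libraries and *Col11a1* only through shRNA-Ddx5 libraries. Their calls between the lines follow in part from the filter and are not taken as support for a difference. Of 5 mesenchymal markers 4 were tested, with 1 higher and 2 lower in medium and 2 higher and 1 lower with cytokines. Of all genes tested 25.3% were higher and 21.7% lower in medium, and 23.5% and 22.1% with cytokines. Of 9 leukocyte markers, *Ptprc* (CD45), *Cd3e* and *Ly6g* had no fragment in any library. The summed level of all 9 leukocyte markers was 1.29 to 1.79 FPKM in shRNA-NC and 1.94 to 2.84 in shRNA-Ddx5. With cytokines it was 1.60 to 2.25 FPKM in shRNA-NC and 2.02 to 2.57 in shRNA-Ddx5. *Cd68*, the 1 leukocyte marker tested, had group means of 1.10 to 1.76 FPKM and did not pass the test in either comparison of the lines. *Lyz2* was higher in the shRNA-Ddx5 means (0.934 against 0.0518 FPKM in medium and 0.569 against 0.0504 with cytokines). *Csf1r* was also higher (0.381 against 0.0887 FPKM in medium and 0.267 against 0.0327 with cytokines). The *Cd68* means were lower in shRNA-Ddx5 in both conditions. The part of *Lyz2* and *Csf1r* in the results was not tested. The 4 endothelial markers summed to at most 0.151 FPKM in a library and the 4 epithelial markers to at most 0.116 FPKM.

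The ligands fall into families with different roles. *Cxcl1*, *Cxcl2*, *Cxcl3* and *Cxcl5* carry a glutamate-leucine-arginine (ELR) motif, act through CXCR2 and attract neutrophils, and their genes are classical NF-κB targets induced by IL-1β and TNF-α. *Cxcl9* and *Cxcl10* act through CXCR3 on T cells and are known as interferon-inducible. *Cxcl12* acts through CXCR4 on progenitor cells and leukocytes and is made constitutively by many mesenchymal cells, and ACKR3 binds both CXCL12 and CXCL11. *Cxcl14* is an epithelial and stromal ligand, and *Cxcl16* is made as a transmembrane protein that can be shed.

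The ELR ligand genes lay in 1 region of chromosome 5 (build GRCm39, plus strand), with other genes between them, in the order *Cxcl5* at chr5:90907157-90909484, *Cxcl3* at chr5:90933960-90935952, *Cxcl1* at chr5:91039104-91040980 and *Cxcl2* at chr5:91051758-91053797. *Cxcl9* (chr5:92469190-92475938) and *Cxcl10* (chr5:92494497-92496748) lay further along on the minus strand. *Cxcl12* was on chromosome 6 (chr6:117145496-117158329), *Ackr3* on chromosome 1 (chr1:90131702-90143446), *Cxcl16* on chromosome 11 (chr11:70345215-70350810) and *Cxcl14* on chromosome 13 (chr13:56436456-56444624). The values count fragments over the exons of each gene, 4 exons in the canonical transcript of the ligands apart from 5 for *Cxcl16*, and 2 for *Ackr3*. *Cxcl10* lies within *Art3* on the opposite strand, and *Art3* had group means of 0 to 0.105 FPKM. *Cxcl5* overlaps *Gm72413*, and *Cxcl16* overlaps *Med11* and *Zmynd15*, on the opposite strand. Whether strand was used in counting is not given in the sources used here, nor how fragments matching more than 1 of the similar genes *Cxcl1*, *Cxcl2* and *Cxcl3* were counted.

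Because the cytokines used here act through NF-κB, the promoters of the ligands were read for its binding letters. RefSeq promoter windows (build GRCm38.p6) were matched for 8 of the 10 genes, all but *Cxcl5* and *Cxcl16*. The letters GGAANTTCC and GGNNTTTCC were searched on both strands, and they can overlap each other. The shown stretches of 30 bases hold the match closest to the start of GGAANTTCC, or of GGNNTTTCC for *Cxcl9*, 5′ to 3′ on the strand of the gene, with matching bases in capitals:
Cxcl3, chr5:90786019-90786048, plus strand: agctgcggggGGAATTTCCccagcccgggc
Cxcl1, chr5:90891165-90891194, plus strand: ctgtactccgGGAATTTCCctggcccggag
Cxcl2, chr5:90903793-90903822, plus strand: ctgagctcagGGAATTTCCctggtccccgG
Cxcl10, chr5:92349028-92349057, minus strand: gaggggagagGGAAATTCCaagttcatggg
Cxcl9, chr5:92328102-92328131, minus strand: ggaaggaaaaGGGATTTCCtaaataaatat

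Counted with the annotated start as 0, the matches began at -72 in *Cxcl3*, -70 in *Cxcl1*, -96 in *Cxcl2*, -158 in *Cxcl10* and -42 in *Cxcl9*. The 9 matching bases were the same in *Cxcl1*, *Cxcl2* and *Cxcl3*. The last capital of the *Cxcl2* stretch opens a second match of GGNNTTTCC at -77, and *Cxcl1* and *Cxcl9* also held a second one, at -89 on the opposite strand and at -130. Of 32851 promoter windows of the same length, 0.928% held GGAANTTCC and 6.43% held either form. The windows of *Cxcl12*, *Cxcl14* and *Ackr3* held neither. The letters AAANNGAAA, a short form of the interferon response element, were found in *Cxcl10* at -212 and *Cxcl14* at -171, and in 10.6% of all windows. The letters TATAAA were found in *Cxcl3* at -30, *Ackr3* at -8 and *Cxcl9* at -195, and in 13.6% of all windows. A match describes the letters and shows no binding.

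Knockdown of *Ddx5* in medium went with higher levels of 3 neutrophil ligands, of *Cxcl12* and of *Ackr3*, while *Cxcl2*, *Cxcl9* and *Cxcl10* were low in both lines. With cytokines, *Cxcl3*, *Cxcl5*, *Cxcl9*, *Cxcl10*, *Cxcl12* and *Ackr3* were higher in shRNA-Ddx5 in every library than in any shRNA-NC library, and *Cxcl1* was not. No member fell with the knockdown in either condition. The test was limma on log2(FPKM + 1) over all 12 libraries, with p-values adjusted by the Benjamini-Hochberg method over the 12368 genes and a threshold of 0.05. In medium 5 of the 8 tested members passed upward, where 25.3% of all genes tested passed upward and 21.7% downward. With cytokines 7 of 8 passed upward, where 23.5% of all genes tested passed upward and 22.1% downward. The median log2 difference of the 8 members was 0.83 in medium and 0.98 with cytokines, beside 0.03 and 0.01 over all genes tested. In bulk RNA, more cells that express a gene and more RNA of it per cell cannot be told apart.

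**Figure D1:**
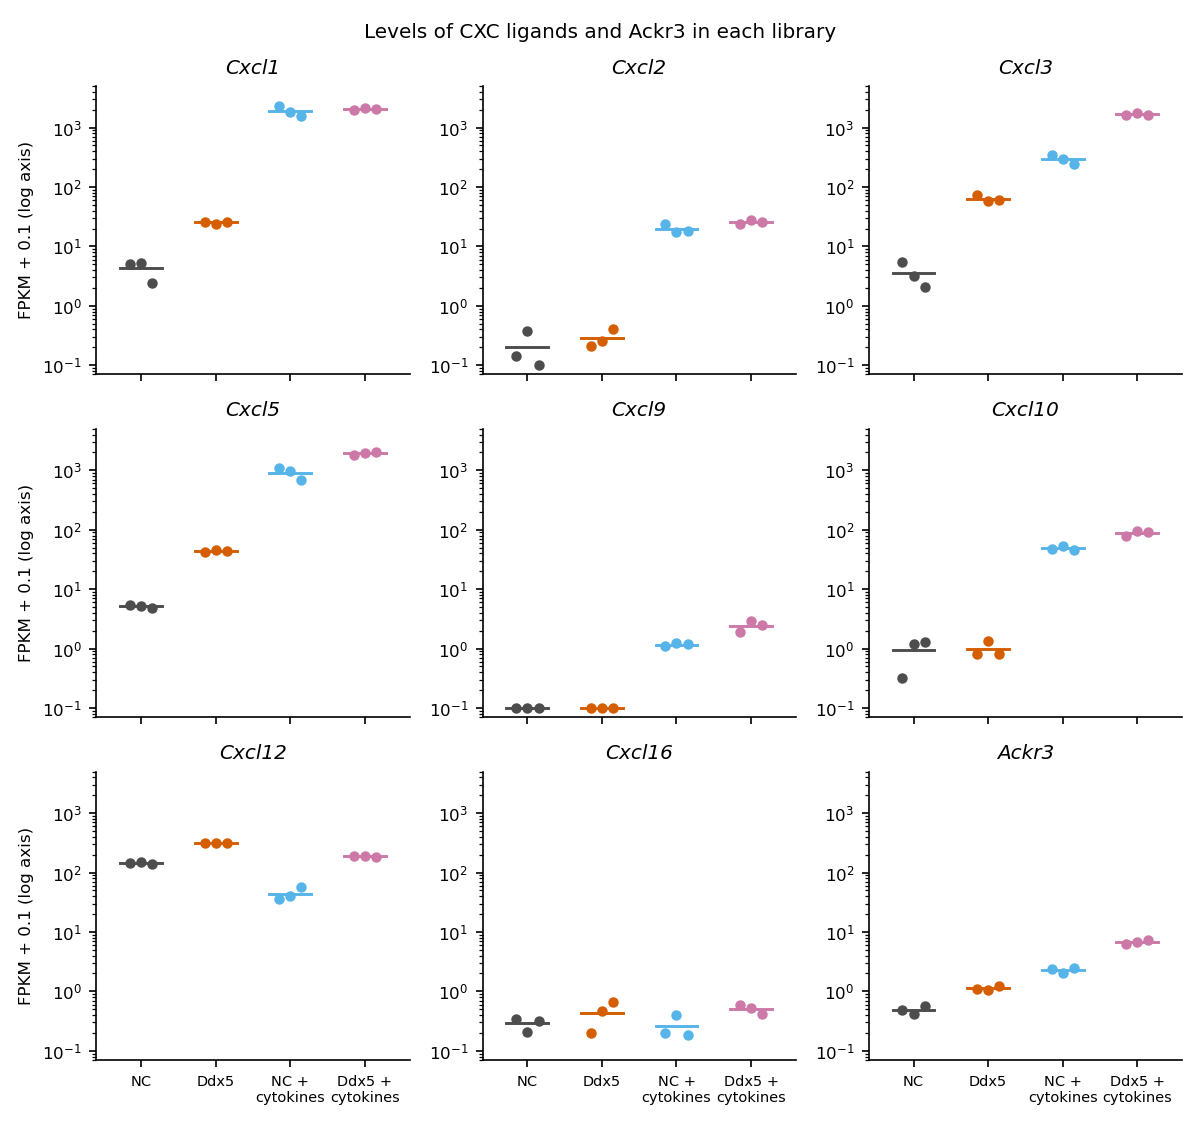
FPKM + 0.1 on a log axis for 9 genes in each of the 12 libraries, by group (NC, shRNA-NC; Ddx5, shRNA-Ddx5); points are libraries and lines are group means, and *Cxcl14*, with no fragment, is left out. *Cxcl1* reached the same range in both lines with cytokines, *Cxcl3* and *Cxcl5* did not, and *Cxcl12* was lower with cytokines than in medium in both lines.

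*Cxcl3* differed most between the lines. In medium its level was 5.34, 3.05 and 1.96 FPKM in the shRNA-NC libraries and 72.2, 58.7 and 60.7 FPKM in the shRNA-Ddx5 libraries, so the lowest knockdown library was far above the highest control. The ratio of the means was 18.5, and the log2 difference was 3.93 (SE 0.23, adjusted p = 5.26e-07). After cytokines its level was 347, 301 and 246 FPKM in shRNA-NC and 1606, 1786 and 1657 FPKM in shRNA-Ddx5, again with no overlap. That was 5.65-fold, with a log2 difference of 2.51 (SE 0.23, adjusted p = 8.99e-06).

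*Cxcl5* had 5.33, 5.12 and 4.66 FPKM in shRNA-NC and 42.2, 45.2 and 44.6 FPKM in shRNA-Ddx5 in medium. The libraries of each line lay close together, and the mean was 8.73-fold higher in the knockdown (log2 difference 2.90, SE 0.14, adjusted p = 1.76e-07). With cytokines the values were 1088, 973 and 679 FPKM in shRNA-NC and 1837, 1952 and 2025 FPKM in shRNA-Ddx5. The groups stayed apart, with the third shRNA-NC library lowest, and the difference shrank to 2.12-fold (log2 difference 1.11, SE 0.14, adjusted p = 9.59e-05).

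*Cxcl1* separated the lines in medium only. Its level was 4.88, 5.26 and 2.37 FPKM in shRNA-NC and 26.0, 23.9 and 25.8 FPKM in shRNA-Ddx5, a ratio of 6.05 (log2 difference 2.39, SE 0.21, adjusted p = 7.16e-06). With cytokines it was 2334, 1834 and 1589 FPKM in shRNA-NC and 1998, 2159 and 2060 FPKM in shRNA-Ddx5. The highest and the lowest of these 6 libraries were both shRNA-NC, and the groups overlapped. The ratio of the means was 1.08, and the log2 difference of 0.13 had a 95% interval of -0.32 to 0.58 (adjusted p = 0.642), so a rise like that in medium lay outside the interval.

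*Cxcl2* was nearly silent in medium, with 0 to 6 fragments per library and at most 0.307 FPKM in either line, and no difference was detectable at this depth (adjusted p = 0.535). Cytokines brought it to 24.2, 17.2 and 17.9 FPKM in shRNA-NC and 23.8, 28.0 and 26.1 FPKM in shRNA-Ddx5, and the first shRNA-NC library lay within the knockdown range. The ratio was 1.31 and the log2 difference of 0.39 (SE 0.14) passed the threshold narrowly (adjusted p = 0.0382). The call was lost without the second or the third shRNA-NC library, or the second or the third shRNA-Ddx5 library, with cytokines (adjusted p = 0.0882 to 0.130), and under 5 other settings (adjusted p = 0.0562 to 0.443).

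Between *Cxcl5* and *Cxcl2* on chromosome 5 the platelet chemokine genes *Ppbp* and *Pf4* and the lung chemokine gene *Cxcl15* are also found, and they were low in all groups. Their group means were at most 1.36, 0.357 and 0.0971 FPKM, all in shRNA-Ddx5 with cytokines. Levels among these neighbours thus spanned from 0.0971 to 2072 FPKM in that group.

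The CXCR3 ligands passed the test between the lines with cytokines, and neither was called in medium, where both were low. *Cxcl9* had no fragment in any of the 6 libraries in medium, which allows up to 3 fragments per library. With cytokines it was 1.01, 1.12 and 1.08 FPKM in shRNA-NC and 1.83, 2.84 and 2.36 FPKM in shRNA-Ddx5, from 49 to 61 and 88 to 131 fragments. The groups did not overlap, and the mean was 2.19-fold higher in the knockdown (log2 difference 0.68, SE 0.11, adjusted p = 4.25e-04).

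*Cxcl10* was 0.220, 1.07 and 1.21 FPKM in shRNA-NC and 0.718, 1.26 and 0.705 FPKM in shRNA-Ddx5 in medium, from 5 to 25 fragments. These libraries overlapped, the log2 difference was 0.08 with a 95% interval of -0.36 to 0.52, and it turned to -0.19 without the first shRNA-NC library and to -0.05 without the second shRNA-Ddx5 library. In the cytokine-treated libraries it was 47.5, 53.0 and 45.0 FPKM in shRNA-NC and 77.0, 96.4 and 91.4 FPKM in shRNA-Ddx5, without overlap. That was 1.82-fold (log2 difference 0.85, SE 0.20, adjusted p = 0.00536); with a pseudocount of 0.1 the adjusted p was 0.126.

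*Cxcl12* was the most abundant CXC ligand in medium. It had 146, 150 and 140 FPKM in shRNA-NC and 317, 318 and 312 FPKM in shRNA-Ddx5, and the libraries of a line lay close together. The ratio was 2.17 (log2 difference 1.11, SE 0.14, adjusted p = 8.74e-05). After cytokines the values were 35.3, 39.5 and 57.7 FPKM in shRNA-NC and 186, 189 and 185 FPKM in shRNA-Ddx5. The control libraries spread more than those of any other group (SD 11.9 FPKM against 1.78 in the knockdown) and still did not come near them, and the ratio was 4.23 (log2 difference 2.09, SE 0.14, adjusted p = 1.31e-06). The third shRNA-NC library with cytokines, highest for *Cxcl12*, was the lowest of the 3 for *Cxcl1*, *Cxcl3*, *Cxcl5* and *Cxcl10*.

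*Ackr3* was low in all groups, and its 4 groups stood at separate levels. It had 0.395, 0.317 and 0.457 FPKM in shRNA-NC, 1.02, 0.950 and 1.12 FPKM in shRNA-Ddx5, 2.29, 1.92 and 2.40 FPKM in shRNA-NC with cytokines and 6.12, 6.74 and 7.30 FPKM in shRNA-Ddx5 with cytokines. No groups overlapped, and the values rested on 15 to 268 fragments. The knockdown mean was 2.64-fold the control mean in medium (log2 difference 0.55, SE 0.09, adjusted p = 6.97e-04) and 3.05-fold with cytokines (log2 difference 1.27, SE 0.09, adjusted p = 2.51e-06). The pseudocount compresses the log2 difference of so low a gene.

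Counting library by library, the groups did not overlap, with shRNA-Ddx5 higher, for *Cxcl1*, *Cxcl3*, *Cxcl5*, *Cxcl12* and *Ackr3* in medium and for *Cxcl3*, *Cxcl5*, *Cxcl9*, *Cxcl10*, *Cxcl12* and *Ackr3* with cytokines. Over all genes tested, 28.7% in medium and 31.7% with cytokines had every shRNA-Ddx5 library above every shRNA-NC library.

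*Cxcl14* and *Cxcl16* were not expressed at a level that could be tested. *Cxcl14* had no fragment in any of the 12 libraries, which allows at most 0.0639 FPKM in the shallowest one. *Cxcl16* had 3 to 18 fragments per library and 0.0880 to 0.551 FPKM. Its fragments summed to 19 in shRNA-NC (95% Poisson interval 11.4 to 29.7), 33 in shRNA-Ddx5 (22.7 to 46.3), 16 in shRNA-NC with cytokines (9.15 to 26.0) and 36 in shRNA-Ddx5 with cytokines (25.2 to 49.8), where the intervals cover counting error only. With cytokines its 3 knockdown libraries lay above its 3 control libraries, and in a fit without the filter the adjusted p was 0.131.

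Among the members that did not need the cytokine-treated libraries to enter the test, the cytokines raised *Cxcl1*, *Cxcl3*, *Cxcl5* and *Cxcl10* and lowered *Cxcl12* in both lines. *Cxcl2*, *Cxcl9* and *Ackr3*, which entered the test only with the help of the cytokine-treated libraries, were also higher. In shRNA-NC 18.6% of all genes tested rose and 15.2% fell, and in shRNA-Ddx5 13.5% rose and 13.5% fell. These comparisons share their libraries with those of the knockdown and are not independent of them.

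In shRNA-NC the rise was 460-fold for *Cxcl1* (log2 difference 8.57, SE 0.21), 181-fold for *Cxcl5*, 86.4-fold for *Cxcl3* and 58.1-fold for *Cxcl10*. In shRNA-Ddx5 it was 82.1-fold, 44.1-fold and 26.4-fold for *Cxcl1*, *Cxcl5* and *Cxcl3*, from a higher start, and 98.8-fold for *Cxcl10*. For *Cxcl2*, with 7 and 11 fragments in medium, the ratio of fragment rates was 170 in shRNA-NC (95% interval of counting error 82.1 to 423) and 134 in shRNA-Ddx5 (74.7 to 269). *Cxcl9* was at least 18.9-fold higher with cytokines in shRNA-NC and at least 39.6-fold higher in shRNA-Ddx5, against a floor of 3 fragments per library. *Ackr3* rose 5.65-fold and 6.53-fold. *Cxcl1*, *Cxcl3*, *Cxcl5* and *Cxcl10* passed the test in limma in both lines, with the highest adjusted p at 4.29e-08, for *Cxcl3* in shRNA-Ddx5. The calls of *Cxcl2*, *Cxcl9* and *Ackr3* follow in part from the filter and are not taken as support for a rise.

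*Cxcl12* went the other way. With cytokines it was at 30.4% of its level in medium in shRNA-NC (log2 difference -1.73, SE 0.14, adjusted p = 4.54e-06) and at 59.2% in shRNA-Ddx5 (log2 difference -0.75, SE 0.14, adjusted p = 0.00202). The knockdown cells treated with cytokines therefore held more *Cxcl12* than untreated control cells, 187 against 145 FPKM, and the libraries of these groups did not overlap; that difference was not tested.

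With cytokines *Cxcl1*, *Cxcl3* and *Cxcl5* were among the most abundant transcripts of the cells. By mean FPKM over all 46731 genes, *Cxcl1* ranked 12, *Cxcl5* 57 and *Cxcl3* 191 in shRNA-NC, and *Cxcl1* ranked 15, *Cxcl5* 18 and *Cxcl3* 25 in shRNA-Ddx5. The other induced ligands were far lower, with *Cxcl10* at ranks 1463 and 847, *Cxcl2* at 3650 and 2962 and *Cxcl9* at 11305 and 9654 in the same groups. In medium *Cxcl12* ranked 349 in shRNA-NC and 191 in shRNA-Ddx5. The levels of *Cxcl1*, *Cxcl3* and *Cxcl5* in shRNA-NC in medium, with means of 4.17, 3.45 and 5.04 FPKM, overlapped between libraries and had no clear order.

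**Figure D2:**
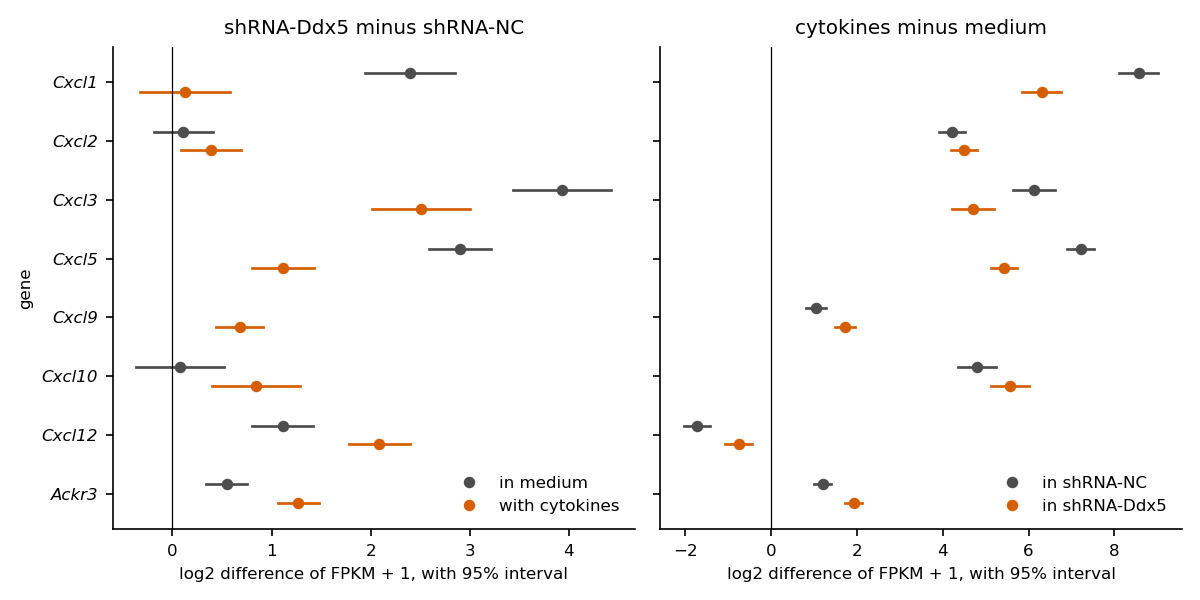
Log2 difference of FPKM + 1 (x axis) for the 8 tested genes, with 95% intervals from limma: left, shRNA-Ddx5 minus shRNA-NC in medium and with cytokines; right, cytokines minus medium in each line. *Cxcl9* has no value in medium on the left because all 6 libraries had no fragment; *Cxcl1* moved from 2.39 in medium to 0.13 with cytokines, and *Cxcl12* is the one gene left of 0 on the right.

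Whether the knockdown difference itself changed with cytokines was tested as an interaction, which is the difference with cytokines minus the difference in medium on the log2(FPKM + 1) scale. It passed upward for *Cxcl12*, *Ackr3* and *Cxcl9* and downward for *Cxcl1*, *Cxcl3* and *Cxcl5*, where 3.46% of all genes tested passed upward and 4.75% downward. The ELR ligands with a knockdown difference in medium had negative values, -2.27 for *Cxcl1* (SE 0.29, adjusted p = 8.52e-04), -1.79 for *Cxcl5* (SE 0.20, adjusted p = 4.67e-04) and -1.42 for *Cxcl3* (SE 0.32, adjusted p = 0.0194). For *Cxcl3* the adjusted p rose to between 0.0508 and 0.0523 without the second shRNA-NC library in medium, or the first or the third shRNA-Ddx5 library with cytokines.

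For *Cxcl12* the interaction was 0.97 (SE 0.20, adjusted p = 0.0122), and it was 0.99 when limma's voom was applied to the fragments. *Ackr3* (0.72, SE 0.13, adjusted p = 0.00694) and *Cxcl9* (0.68, SE 0.15, adjusted p = 0.0200) also passed upward, but both depended on the scale. With a pseudocount of 0.1 they were 0.36 (adjusted p = 0.362) and 1.04 (adjusted p = 0.162), and with voom 0.20 (adjusted p = 0.753) and 1.02 (adjusted p = 0.538). With no fragment in medium, the value for *Cxcl9* is its difference with cytokines and holds no measured change of the effect. *Cxcl9* also lost the call without the third shRNA-Ddx5 library in medium (adjusted p = 0.0508) or with cytokines (adjusted p = 0.0575). *Cxcl2* (0.28, adjusted p = 0.429) and *Cxcl10* (0.77, adjusted p = 0.130) did not pass, and *Cxcl10* passed without the first shRNA-NC library (1.04, adjusted p = 0.0113).

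The make-up of the ligand transcripts, as each ligand's part of the summed FPKM of the 9 ligands, shifted with both factors. The sum was 159 ± 7.41 FPKM (SD, n = 3) in shRNA-NC, 450 ± 7.32 in shRNA-Ddx5, 3244 ± 621 in shRNA-NC with cytokines and 5996 ± 245 in shRNA-Ddx5 with cytokines, and no libraries of different groups overlapped. *Cxcl12* took 91.4 ± 1.54% of the sum in shRNA-NC and 70.1 ± 0.923% in shRNA-Ddx5 in medium. The 4 ELR ligands together took 7.97 ± 1.86% and 29.6 ± 1.02%. With cytokines the ELR ligands took 97.0 ± 0.892% in shRNA-NC and 95.4 ± 0.0112% in shRNA-Ddx5, and *Cxcl12* 1.44 ± 0.666% and 3.12 ± 0.114%.

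Within the ELR ligands the mix differed between the lines after cytokines. In shRNA-NC *Cxcl1* made up 59.1 ± 1.88% of the ligand sum, *Cxcl5* 28.0 ± 2.22% and *Cxcl3* 9.21 ± 0.219%. In shRNA-Ddx5 they made up 34.6 ± 0.433%, 32.3 ± 1.06% and 28.1 ± 0.673%, so the 3 genes came close to each other. *Cxcl2* made up 0.613 ± 0.0728% and 0.432 ± 0.0177%. The shares add up to the whole and so are not independent of each other.

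**Figure D3:**
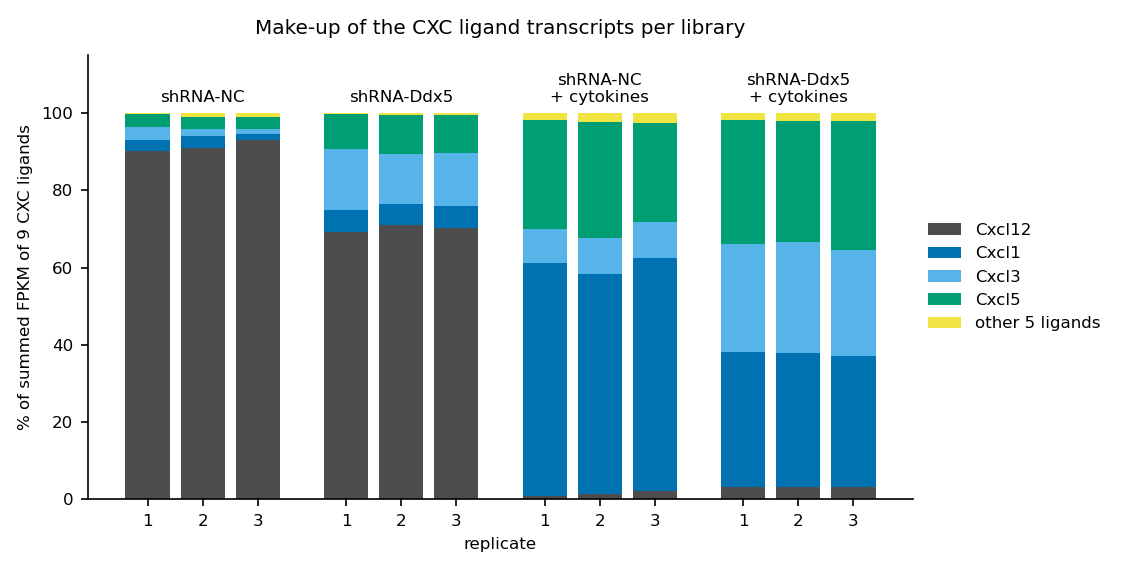
Share of each ligand in the summed FPKM of the 9 CXC ligands (y axis, %), 1 bar per library, by group and replicate. *Cxcl12* fills 91.4% of the sum in shRNA-NC and 70.1% in shRNA-Ddx5 in medium, and *Cxcl1*, *Cxcl3* and *Cxcl5* fill most of it with cytokines, with a larger part for *Cxcl3* in shRNA-Ddx5.

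The ratio of *Cxcl12* to *Ackr3* FPKM set the ligand against its decoy receptor in the same library. It was 369, 473 and 307 in shRNA-NC and 312, 334 and 279 in shRNA-Ddx5 in medium, which overlapped. After cytokines the ratio was 15.5, 20.5 and 24.1 in shRNA-NC and 30.4, 28.0 and 25.4 in shRNA-Ddx5, where every knockdown library was above every control library. The group means were 383 ± 83.7, 308 ± 27.8, 20.0 ± 4.34 and 27.9 ± 2.51 (SD, n = 3). By the exact two-sided permutation test on the log2 ratio, the difference between the lines was -0.29 in medium (p = 0.3) and 0.50 with cytokines (p = 0.1). Cytokines minus medium gave -4.26 in shRNA-NC and -3.46 in shRNA-Ddx5 (p = 0.1 each, exact permutation). With 3 libraries against 3 the smallest p this test allows is 0.1, so none of the 4 comparisons could pass 0.05. The difference in medium became 0.57 when 1 was added to both FPKM values before the ratio.

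**Figure D4:**
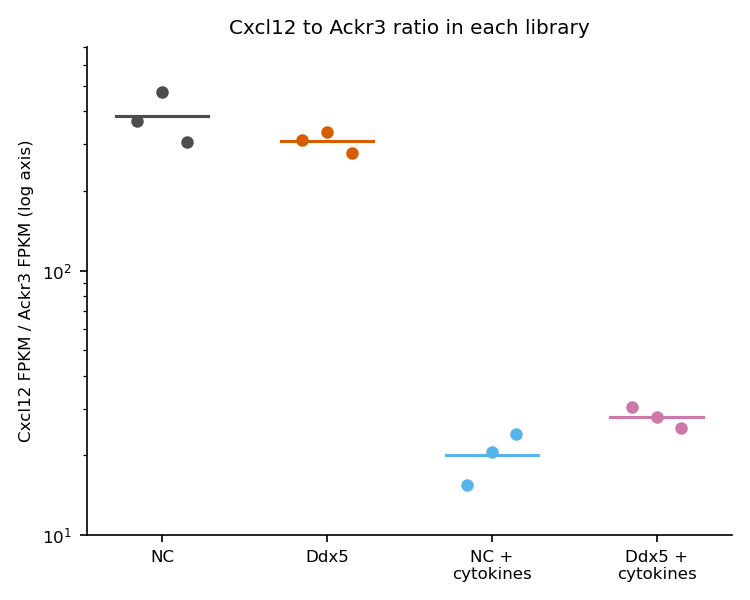
*Cxcl12* FPKM divided by *Ackr3* FPKM (y axis, log scale) in each library; points are libraries and lines are group means. The ratio was 279 to 473 in the 6 libraries in medium and 15.5 to 30.4 in the 6 libraries with cytokines.

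Of 16 other CXC ligand and atypical or classical receptor genes, 2 were tested. *Cxcr1*, *Cxcr2*, *Cxcr3* and *Ackr1* had no fragment in any library, so the receptors of the ELR and interferon-inducible ligands were not detected at this depth. *Cxcr4*, the signaling receptor for CXCL12, had group means of 0.0694 to 0.724 FPKM, below the mean of *Ackr3* in each of the 4 groups. *Cxcl11*, annotated here as a transcribed pseudogene in the mouse reference, had 6.17 FPKM in shRNA-NC and 3.65 FPKM in shRNA-Ddx5 with cytokines and fell with the knockdown (log2 difference -0.59, adjusted p = 0.0188), while its neighbours *Cxcl9* and *Cxcl10* rose. *Ppbp* had 0.363 FPKM in shRNA-NC and 1.36 FPKM in shRNA-Ddx5 with cytokines (log2 difference 0.81, adjusted p = 0.00151). It entered the test only through the shRNA-Ddx5 libraries with cytokines. Its call therefore follows in part from the filter and is not taken as support for a rise. Neither *Cxcl11* nor *Ppbp* passed in medium.

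Of 21 cytokine receptors and NF-κB regulators, 20 were tested. The knockdown raised 7 and lowered 4 in medium, and raised 9 and lowered 2 with cytokines, with medians of 0.00393 and 0.24 on the log2 scale beside 0.03 and 0.01 over all genes tested. Over all genes tested 25.3% rose and 21.7% fell in medium, and 23.5% rose and 22.1% fell with cytokines, so the number lowered in medium was near that of all genes. In medium *Nfkbiz*, a co-activator of NF-κB, rose by 0.85 and the adaptor *Myd88* by 0.46, while the inhibitor *Nfkbie* (-0.77) and the subunit *Relb* (-0.60) fell. With cytokines *Tnip1*, which restrains TNF signaling, rose by 1.16 and the TNF receptor *Tnfrsf1a* by 0.75, while *Traf6* (-0.51) and the kinase *Ikbkb* (-0.40) fell. Cytokines raised 14 and lowered 1 of the 20 in shRNA-NC and raised 16 and lowered 0 in shRNA-Ddx5. Of all genes tested they raised 18.6% and lowered 15.2% in shRNA-NC, and raised 13.5% and lowered 13.5% in shRNA-Ddx5.

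Among 8 regulators of chemokine mRNA decay, all tested, the knockdown raised 2 and lowered 2 in medium and raised 2 and lowered 1 with cytokines. These counts are near those over all genes tested (25.3% up and 21.7% down in medium, 23.5% and 22.1% with cytokines) and are no result about the list. *Zfp36l2*, of the family that binds AU-rich elements and promotes decay, fell by 1.01 in medium and by 1.49 with cytokines, and its relative *Zfp36l1* fell by 0.43 in medium. *Traf3ip2*, the adaptor ACT1 that stabilizes *Cxcl1* mRNA, rose by 0.35 and 0.88, the RNA-binding protein gene *Elavl1* rose by 0.29 in medium, and *Zc3h12a*, which encodes the RNase regnase-1, rose by 1.10 with cytokines.

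Of 18 genes of the interferon route 15 were tested. In medium the knockdown lowered 5, with *Irf3* (-0.49) and *Gbp2* (-0.35) lowest. With cytokines it raised 8 and lowered 1, *Ifnar1* (-0.27), with the highest values for *Irf7* (2.35) and *Ifit3* (1.97). The median was 0.04 in medium and 0.86 with cytokines, beside 0.03 and 0.01 over all genes tested, and the interaction passed upward for 9 of the 15 and downward for 0. Over all genes tested 21.7% fell in medium, 23.5% rose and 22.1% fell with cytokines, and the interaction passed upward for 3.46% and downward for 4.75%. Among the genes that passed upward, *Irf7*, *Isg15* and *Ifit3* had group means of at most 0.676, 0.383 and 0.650 FPKM in medium. The pseudocount compresses a difference at such levels, and the interaction of these genes is not given on other scales here. *Irf7*, *Isg15* and *Ifit3* also entered the test only through the cytokine-treated libraries, so the filter chose them by their values with cytokines. The count of 9 includes them. *Ifng* had no fragment in any library, and *Ifnb1* had a group mean of 0.024 FPKM in shRNA-Ddx5 in medium and 0 elsewhere. Of 10 genes of ligand processing and receptor uptake 7 were tested. The knockdown raised *Mmp2* in medium (0.44) and *Mmp3* (2.29), *Mmp2* (0.75) and the receptor kinase *Grk2* with cytokines, and lowered none. Beside them, 25.3% of all genes tested rose in medium and 23.5% with cytokines, and these few genes are no result about the list. *Mmp3* varied widely in shRNA-NC with cytokines, with a mean of 6.01 FPKM and an SD of 7.22 FPKM.

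The genes whose pattern over the 12 libraries was most like that of a member were sought among the other genes tested, by Pearson r of log2(FPKM + 1). These values follow mainly the 4 group means and are a description. *Cxcl1* was closest to *Ripk2* (r = 0.994) and *Nfkbiz* (0.994), *Cxcl5* to *Ripk2* (0.992) and *Nmi* (0.992), *Cxcl2* to *Gbp3* (0.996) and *Nfkbib* (0.996), and *Cxcl3* to *Ctps* (0.992). *Cxcl9* was closest to *Ifi47* (0.997) and *Sod2* (0.991), and *Cxcl10* to *Slc7a2* (0.996) and *Gbp3* (0.995). *Cxcl12* was closest to *Odf2* (0.991) and *Kif20a* (0.980), and *Ackr3* to *Dusp8* (0.989) and *Gpr176* (0.986). Among the members, *Cxcl2* and *Cxcl10* were the most alike pair (r = 0.993), followed by *Cxcl1* and *Cxcl5* (0.989), and *Cxcl12* and *Ackr3* had r = -0.08.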

How the data were processed

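The data were 1 table of FPKM values for 46731 genes in 12 libraries, deposited by the authors, who sequenced poly(A) RNA as 150-nt paired ends and counted fragments per gene. The submitters' processing notes name HISAT2 2.0.5, featureCounts 1.5.0-p3 and mm10, while the gene coordinates in the table are those of GRCm39. FPKM times gene length came out as a whole multiple of 1 step per library for 100% of values, within 0.01, and the fragments behind each value were read from that step.

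Groups were compared in 1 fit over the 12 libraries with limma 3.58.1 (R 4.3.3, eBayes with trend) on log2(FPKM + 1), for genes with at least 1 FPKM in at least 3 libraries, Benjamini-Hochberg adjustment over 12368 genes and a threshold of 0.05. A log2 difference on this scale understates the change of low genes, so ratios of mean FPKM are given beside it. The fit was tested on simulated data. Alternatives were a pseudocount of 0.1, no filter, quantile normalization, equal fragment totals, voom on the recovered fragments, a replicate block, only the 6 libraries of a contrast, and each library left out. Floors are 3 fragments and intervals 95%.

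Members and gene lists were chosen with earlier results of these data known. Named are the members, *Ddx5*, the 2 highest and 2 lowest called genes of each list per comparison of the lines, and the 2 genes most alike to each member. *Cxcr4*, *Ifng*, *Ifnb1*, *Art3*, *Pf4*, *Cxcl15*, *Grk2*, *Lyz2*, *Csf1r* and the undetected receptors and markers were named after their values were seen. Some genes that the rule names are not reported here. Of the decay list 1 entry, an older name, was not matched.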

Additional observations from a re-analysis of the deposited data

Results flagged for a closer look

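For 6 genes the effect of the knockdown with cytokines differed from that in medium by the interaction test in limma (p adjusted over 12368 genes). On the log2(FPKM + 1) scale the difference was -2.27 for *Cxcl1* (adjusted p = 8.52e-04), -1.42 for *Cxcl3* (0.0194), -1.79 for *Cxcl5* (4.67e-04), 0.68 for *Cxcl9* (0.0200), 0.97 for *Cxcl12* (0.0122) and 0.72 for *Ackr3* (0.00694). *Cxcl9* had no fragment in medium, so its value is the difference with cytokines alone. For *Cxcl9* and *Ackr3*, the lowest of these genes, the call was lost on other scales, and for *Cxcl3* and *Cxcl9* it was lost without single libraries, as given above.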

How the results depend on the processing

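Across the settings other than leaving out single libraries, member results kept direction and side of the threshold in 260 cases, lost the call in 10 and changed sign in 2. The sign changes were the interaction of *Cxcl2*, at -0.27 with a pseudocount of 0.1 and -0.78 with voom against 0.28, none of which passed the test. With 1 library left out, 468 cases kept both, 9 lost the call, 1 gained it and 2 changed sign. The latter were *Cxcl10* in the knockdown in medium, from -0.19 to 0.24, where the level rests on 5 to 25 fragments per library. The count of genes passing the interaction was 1016 and ranged from 559 to 1123 with 1 library left out. It was 628 without the second shRNA-NC library, 600 without the third shRNA-Ddx5 library, and 610, 632 and 559 without the first, the second and the third shRNA-Ddx5 library with cytokines. The cause of these lower counts was not tested. The log2 ratio of *Cxcl12* to *Ackr3* in the knockdown in medium was 0.57 with 1 added to both values (a setting chosen after seeing the data) against -0.29.

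Replicate numbers showed no pairing of the samples on average, and this check cannot exclude pairing of part of the libraries. Same-numbered libraries of different groups had a mean correlation of deviations from group means of -0.0450 over 18 pairs (-0.394 to 0.448), beside 0.0216 over 36 pairs of other numbers. With a replicate block 687 genes passed the interaction, 5452 against 5817 in medium and 5232 against 5645 with cytokines, and among members *Cxcl2* with cytokines had an adjusted p of 0.0661.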
